A study of Mus musculus with 6 samples.

Results

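Internally repeated new lncRNAs were 260 of the 8040 newly assembled long non-coding RNAs (lncRNAs) deposited for mouse cortex, a share of 3.23% (95% Wilson interval 2.87 to 3.64%). A transcript was included when a stretch of 20 nt, holding at least 8 of the 16 possible dinucleotides, occurred at 2 or more places that did not overlap on the same strand of its deposited sequence. The demand for varied dinucleotides leaves out runs of single bases and simple alternating letters. No expression value entered the choice.

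The cortex came from male wild-type C57BL/6 mice of 8 to 12 weeks (C57BL/6 J in the study's methods), taken around the bleeding area at 24 h. Control mice, labelled Normal, were operated on without perforation, and the other group had a subarachnoid haemorrhage (SAH) induced by endovascular perforation, in which a filament pierces an artery at the base of the brain. Each group had 3 libraries, and each library pooled the lysates of 3 mice. The deposited records give 1 sequence, 1 predicted secondary structure and 1 folding free energy per transcript for all 6 libraries together, so control and SAH cannot be compared here, and the depth behind each transcript is unknown.

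Repeated elements are a familiar part of lncRNA biology. Xist, which coats the inactive X chromosome, carries several tandem repeat blocks that recruit different proteins. NORAD holds many copies of a Pumilio binding element within a repeated unit, and Firre carries a repeated RNA domain linked to its retention in the nucleus. Tandem arrays of short units, known in DNA as minisatellites, arise largely by slippage and unequal exchange, whereas dispersed copies within a transcript can come from insertions of transposable elements such as the B1 family of rodents.

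The repeat units of 5 transcripts are printed 5′ to 3′ as deposited. Some were chosen for near-identical units, so they do not show how regular the arrays were in general. In TCONS_00088145, which is not among them, 16 units had 15 distinct forms. Each array was divided where its most repeated 20-nt stretch began again, allowing 2 mismatches. Capitals mark the bases of a unit that are the same as those of that stretch, and lower case marks mismatches to it and the rest of the unit. TCONS_00059216 was chosen for its long identical unit, TCONS_00166070 and TCONS_00178785 for their many near-identical units, and TCONS_00099533 and TCONS_00252365 for the most copies and the largest covered share. Not every form is printed, and another form of TCONS_00099533 was also seen 5 times.
TCONS_00059216, unit of 70 nt, seen 5 times: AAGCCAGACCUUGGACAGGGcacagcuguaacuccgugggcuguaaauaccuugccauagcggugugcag
TCONS_00166070, unit of 43 nt, seen 6 times: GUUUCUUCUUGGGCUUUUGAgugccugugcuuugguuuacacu
TCONS_00166070, unit of 43 nt, seen 3 times: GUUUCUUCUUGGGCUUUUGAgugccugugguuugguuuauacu
TCONS_00166070, unit of 43 nt, seen 2 times: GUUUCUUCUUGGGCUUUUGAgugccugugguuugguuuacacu
TCONS_00178785, unit of 40 nt, seen 11 times: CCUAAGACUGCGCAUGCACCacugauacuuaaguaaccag
TCONS_00178785, unit of 40 nt, seen 2 times: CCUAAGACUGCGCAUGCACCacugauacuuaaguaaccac
TCONS_00178785, unit of 39 nt, seen 2 times: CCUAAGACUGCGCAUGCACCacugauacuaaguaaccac
TCONS_00099533, unit of 23 nt, seen 6 times: UGCACAGGUGCUGACAUAACcag
TCONS_00099533, unit of 23 nt, seen 5 times: UGCACAGGUGCUGACAUAAucaa
TCONS_00099533, unit of 23 nt, seen 3 times: UGCACAGGUGCUGACAUAACcug
TCONS_00252365, unit of 31 nt, seen 2 times: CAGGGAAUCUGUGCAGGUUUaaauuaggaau
TCONS_00252365, unit of 31 nt, seen 2 times: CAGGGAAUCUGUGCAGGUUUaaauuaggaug

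Most internally repeated lncRNAs held a pair of copies close together. The most repeated stretch had 2 copies in 207 of the 260 transcripts, 3 copies in 22, 4 in 10 and 5 or 6 in 11 more. At least 10 copies were present in 8 transcripts, and the highest number was 18. When up to 2 mismatches were allowed, 58 transcripts gained copies, 85 in place of 53 held at least 3, and the highest number was 29. The copies were tandem, with a smallest start-to-start spacing under 200 nt, in 236 transcripts (90.8%, 95% Wilson interval 86.6 to 93.7%), and dispersed in the other 24. Intervals cover counting error only, and transcripts that overlap are not independent.

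**Figure D1:**
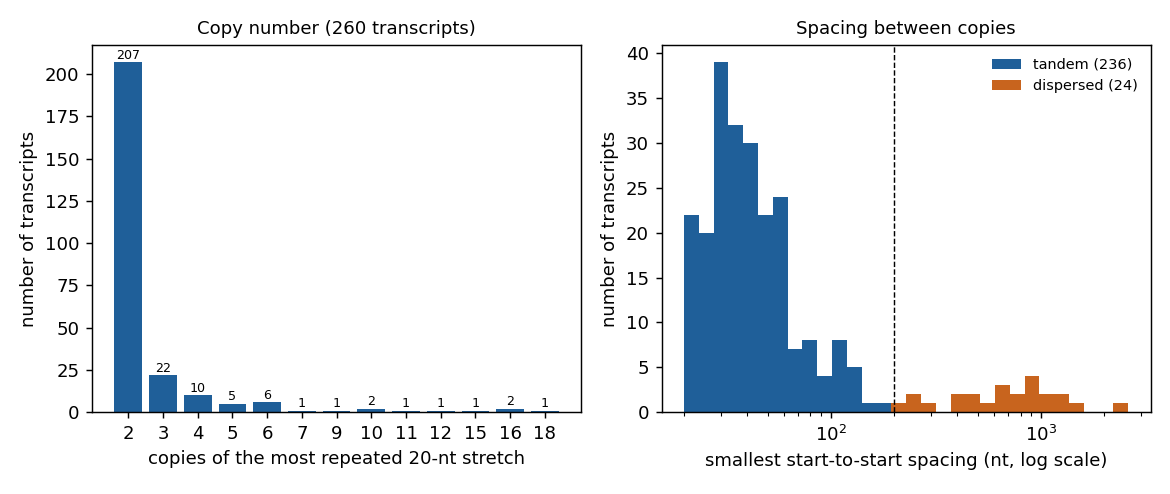
Left, number of transcripts (y axis) by copies of the most repeated 20-nt stretch (x axis), with the number above each bar. Right, number of transcripts by smallest start-to-start spacing in nt on a log axis, tandem in blue and dispersed in orange, with the limit of 200 nt dashed. Of the 260 transcripts, 207 had 2 copies and 195 had a spacing under 60 nt.

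Spacings were short. The smallest spacing had a median of 39.5 nt (quartiles 30 to 59.25 nt) over all 260 transcripts, and 195 of them were spaced by less than 60 nt. Among the 236 tandem transcripts the commonest spacings were 32 nt in 16 transcripts, 20 nt in 12, 40 nt in 11, 30 nt in 10 and 23 nt in 9. A spacing of 20 nt is the shortest the definition allows. The spacing was a multiple of 3 in 70 of 236 tandem transcripts (29.7%). The 24 dispersed transcripts had a median spacing of 715.5 nt and ranged from 217 to 2551 nt. The smallest spacing of a tandem transcript was at most 176 nt, but further copies in tandem transcripts could lie wider apart, up to 597 nt.

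The exact repeats were usually only slightly longer than the stretch that defined them. The longest exact repeat of a transcript had a median of 28.5 nt (quartiles 22 to 40.25 nt), it reached 50 nt in 38 transcripts and 100 nt in 6. In 76 of the 236 tandem transcripts (32.2%) the copies of the longest repeat adjoined with no base between them, and in 105 they were at most 5 nt apart. Just outside the definition, 29 transcripts had a repeat of 19 nt and none of 20 nt, and 27 transcripts just inside it had a longest repeat of exactly 20 nt. For the second criterion, 23 members reached exactly 8 dinucleotides and 16 transcripts left out reached 7.

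**Figure D2:**
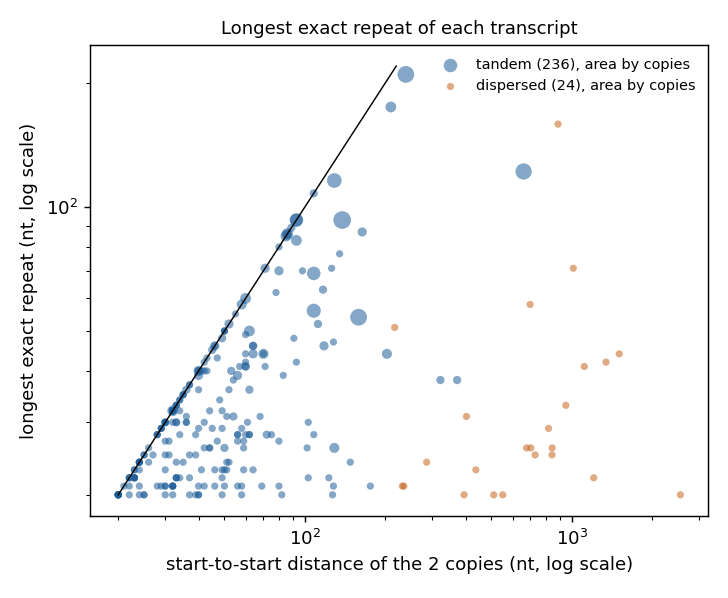
Length of the longest exact repeat in nt (y axis) against the start-to-start distance of its 2 copies in nt (x axis), both on log axes, 1 point per transcript with the area set by copy number. The line marks copies that adjoin, above which non-overlapping copies cannot lie. In 76 tandem transcripts the point is on the line, and the longest repeat is 210 nt.

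Repeats took up a small part of most transcripts. The covered share, the bases in any copy over the transcript length, had a median of 4.92% (quartiles 3.12 to 7.96%, range 0.745 to 72.1%). It stayed under 10% in 211 transcripts and reached 25% in 14. Over all members, 28102 of 458690 bases were repeated. The 31 transcripts with at least 4 copies held 38.1% of these repeated bases, all 31 were tandem, and their covered share had a median of 19.4%. Their arrays, the runs of repeated bases with gaps under 200 nt, spanned a median of 280 nt (95 to 839 nt). In 14 of the 31, every spacing was a whole multiple of the smallest spacing.

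TCONS_00099533 had the most copies. Its most repeated stretch occurred exactly 18 times, or 29 times with up to 2 mismatches, in an array of 658 nt from base 21 to base 678 of a transcript of 1908 nt. The covered share was 34.1%. Division with 2 mismatches allowed gave 26 units of 23 nt and 1 of 46 nt, from base 11 to base 654. They had 10 distinct forms, and the commonest form was present 6 times. All spacings were multiples of 23 nt, and 46 nt was the commonest. TCONS_00108802 also had a unit near this size, with 16 exact copies, 18 units of 23 nt and 5 units of 22 nt over 541 nt. No stretch of either transcript was in another record.

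TCONS_00178785 had the longest exact repeat of all 260 transcripts, 210 nt at a distance of 239 nt. Its array of 779 nt held 16 exact copies, and the covered share was 35.5% of 2177 nt. The array held 15 units of 40 nt and 3 of 39 nt, and 11 of the 18 units were the same sequence. The unit of 39 nt printed above is a unit of 40 nt, seen 2 times, with 1 U removed. TCONS_00198158 showed the same kind of change in unit length on a larger scale. It held 15 copies over 839 nt, the widest array, with 8 units of 53 nt and 6 of 59 nt.
TCONS_00198158, unit of 59 nt, seen 5 times: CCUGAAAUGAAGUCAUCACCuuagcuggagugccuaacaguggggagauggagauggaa
TCONS_00198158, unit of 53 nt, seen 4 times: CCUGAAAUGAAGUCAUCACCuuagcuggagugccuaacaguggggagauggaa
The form of 59 nt is the form of 53 nt with 6 further bases, gaugga, near the 3′ end. The longest exact repeat of TCONS_00198158 was 122 nt, and its copies started 660 nt apart.

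TCONS_00225379 alternated between another pair of unit lengths, 6 units of 54 nt and 4 units of 44 nt. The 11 exact copies spanned 524 nt, and 47.8% of the 1073 nt were repeated. Of the 2 units of TCONS_00225379 printed here, the longer is the shorter with 10 further bases, agcaugugca, which are also the bases that begin the unit.
TCONS_00225379, unit of 54 nt, seen 2 times: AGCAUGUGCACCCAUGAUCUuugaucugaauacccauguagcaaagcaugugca
TCONS_00225379, unit of 44 nt, seen 1 time: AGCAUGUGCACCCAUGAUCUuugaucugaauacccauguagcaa
TCONS_00024670 held units of 35 nt (10) and 38 nt (6), in 11 distinct forms, and 47.5% of its 1278 nt were repeated.

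In 3 short transcripts the repeat took up much of the record. TCONS_00252365 had the largest covered share, 72.1% of only 290 nt, with 6 exact copies at 31 nt in an array that ran to the last base. TCONS_00088145 followed with 69.1% of 899 nt. Its array of 623 nt held 10 exact copies and 18 with up to 2 mismatches, in units of 34 to 51 nt, most of them 36 or 38 nt. TCONS_00088417 was covered to 48.5%, and its 5 exact copies rose to 14 when 2 mismatches were allowed. Whether an array continued beyond its record could not be seen without a genome, and none was used here.

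TCONS_00059216 and TCONS_00166070 had nearly uniform arrays. Compared with itself shifted by the commonest spacing, with no gaps, the array of TCONS_00059216 was 99.7% identical and that of TCONS_00166070 98.0%. Among the 31 transcripts with at least 4 copies the value ran from 58.0% in TCONS_00047402 to 100% in TCONS_00076427, TCONS_00100886 and TCONS_00112471. Since no gaps were allowed, a change in unit length lowers this value. TCONS_00059216 held 6 units of 70 nt from base 305 to base 724, and 419 of these 420 bases were part of an exact repeat. Its longest exact repeat was 175 nt. TCONS_00166070 held 12 copies at 43 nt over 499 nt, and its 11 complete units had only 3 forms. The 3 forms printed above for TCONS_00166070 differ at 2 positions, 30 and 40 counted from the 5′ end of the unit, both after the capitals. In TCONS_00051138 the value was 79.9%. Its 8 units, 7 of them of 71 nt, were all different from each other, and only 4 exact copies were present in an array of 663 nt.

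**Figure D3:**
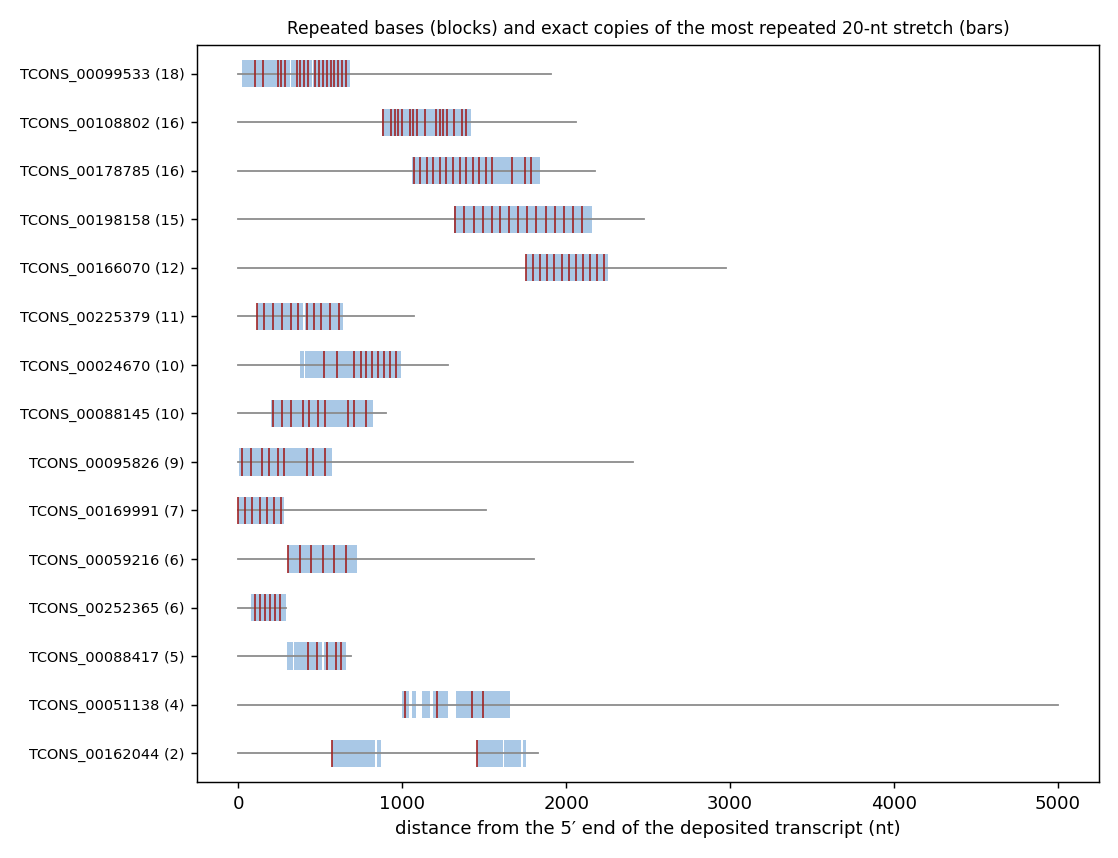
Position along the deposited transcript in nt from its 5′ end (x axis) for the named transcripts with at least 4 copies and TCONS_00162044, with exact copy numbers in brackets. Grey lines are transcripts, light blocks are repeated bases and red bars are exact copies of the most repeated 20-nt stretch, and arrays start at base 1 or 2 in TCONS_00169991 and TCONS_00095826.

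Tandem arrays were found along the whole length of transcripts. With the transcript divided into 5 equal parts from the 5′ end, the array centre lay in the first part in 44 of 236 tandem transcripts, in the following parts in 46, 43 and 43, and in the last part in 60. Repeated bases, inside or outside the widest array, came within 20 nt of an end in 37 of the 236 and reached the first or last base in 23.

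The dispersed repeats were different in form, each with exactly 2 copies. TCONS_00162044 held the longest of them, an exact repeat of 159 nt whose copies started 888 nt apart.
TCONS_00162044, longest exact repeat: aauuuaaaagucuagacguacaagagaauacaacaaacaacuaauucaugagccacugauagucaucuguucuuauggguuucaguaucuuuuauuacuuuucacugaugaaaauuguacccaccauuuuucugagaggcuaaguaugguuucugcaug
Repeated bases made up 31.4% of the 1827 nt of TCONS_00162044, since further exact stretches continued the resemblance past this repeat, at spacings of 887 and 888 nt. The other dispersed repeats were at most 71 nt long, and their median was 26 nt. The windows directly after the 2 copies were a median of 45% identical in the 24 dispersed transcripts (4.76 to 90.5%) and 40% in the 217 tandem transcripts that had such windows. At 50% identity or more, which 85 of the 217 reached, the resemblance went on beyond the exact repeat.

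Most repeats belonged to a single record. For 199 of the 260 transcripts, none of the repeated 20-nt stretches was found in any other new lncRNA on either strand. For 53 transcripts they were in 1 to 4 other records, and in 42 of these 53 every other record shared at least 50 bases with the transcript, directly or through further records. No transcript was in the range of 5 to 9 other records, and 8 transcripts had stretches in 10 or more. Of these 8 transcripts 5 were dispersed, while dispersed transcripts were 24 of all 260.

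Repeats shared between members were mostly in records that had longer sequence in common. There were 20 groups of 2 or 3 members that held a repeated stretch in common, 43 members in all, and in 18 of the 20 groups the records also shared at least 100 bases. TCONS_00088145, TCONS_00091002 and TCONS_00095826 formed such a group, all with a commonest spacing of 93 nt but with 10, 6 and 9 copies. TCONS_00088145 and TCONS_00095826 had 651 bases in common. TCONS_00095826 began within the array of TCONS_00088145, and TCONS_00091002 ended within it. TCONS_00162029, TCONS_00166070 and TCONS_00169991 shared the 43-nt unit, with 4, 12 and 7 copies. Both TCONS_00162029 and TCONS_00169991 began within the array. Copy number thus differed between records that shared sequence but began or ended at different places in the array. It is a property of the deposited record. When members joined by shared runs of 50 bases, directly or through further records, were counted once, 216 separate groups remained.

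Some of the stretches found in many records had the letters of an interspersed element. TCONS_00243294 had stretches in 102 other records, TCONS_00132538 in 78, TCONS_00089044 in 69, TCONS_00010610 in 43 and TCONS_00117965 in 36. The longest exact repeats of 3 of them are printed for comparison.
TCONS_00010610: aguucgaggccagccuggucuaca
TCONS_00243294: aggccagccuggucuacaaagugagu
TCONS_00089044: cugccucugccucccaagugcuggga
The repeats of TCONS_00010610 and TCONS_00243294 share the 18-base run aggccagccuggucuaca, which belongs to the B1 element, an abundant short interspersed element of rodents related to the RNA of the signal recognition particle. The complement of the repeat of TCONS_00089044 holds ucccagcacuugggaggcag, which also lies between the copies in TCONS_00010610. Whether that run is from the same element was not tested. No library of repeat elements was used here, so no transcript was assigned to a family.

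A mature miRNA sequence lay within 6 of the 260 transcripts (2.31%, 95% Wilson interval 1.06 to 4.94%) and within 107 of all 8040 records (1.33%, 1.10 to 1.61%). None of the 1005 RefSeq hairpins lay within a member. In TCONS_00010610 the complement held all of miR-3470b (GRCm38.p6, chr16:44013885-44013905, plus strand), and 15 of its 21 bases fell in a repeated stretch. These 15 bases lie within the run aggccagccuggucuaca described above. The same 21 bases were in 36 of the 8040 records. In the other 5 transcripts the matches were to miR-3473a or miR-3473b and lay outside the repeated bases. Of all records, 19 held miR-3473a and 36 held miR-3473b. The seed, bases 2 to 8, is in capitals.
mmu-miR-3470b: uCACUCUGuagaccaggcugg

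An exact run of 50 bases was shared with a RefSeq promoter window, 250 bases before to 50 after a gene start, by 10 members (3.85%, 95% Wilson interval 2.10 to 6.93%). The share over all records was near this, 296 of 8040 (3.68%). TCONS_00222635 and TCONS_00225215 held the whole window of the non-coding gene Gm31638 (GRCm38.p6, chr8:47684368-47684667, plus strand), and their repeated bases lay inside it, between 57 and 5 bases before the start. TCONS_00229679 shared 105 bases with the window, the repeat included. The 2 copies, spaced by 32 nt, are in capitals with 10 bases on each side.
Gm31638 promoter, plus strand: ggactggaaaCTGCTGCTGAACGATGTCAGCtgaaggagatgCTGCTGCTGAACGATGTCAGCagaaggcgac
TCONS_00197204 held the window of Gm33496 on chromosome 6, with none of its repeated bases inside. In TCONS_00243294, runs of 51 to 71 bases were shared with the windows of Sec31a, Gm34450 and Dcakd, and nearly all of these bases were repeated ones. Repeated stretches of TCONS_00243294 were also in 102 other records, so the runs are not particular to these genes. Whether they come from an interspersed element was not tested.

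The composition of repeated bases differed from that of the rest of the same transcripts. Their GC content had a median of 45.0%, against 41.9% in the other bases, and it was higher in 160 of 260 transcripts. It ranged from 8.70% to 68.6% between transcripts. The dinucleotides GU and UG were 1.35 and 1.27 times as frequent in repeated bases as in the rest, and AA and UU were 0.610 and 0.646 times as frequent. The criterion of 8 dinucleotides bears on the last pair, since it leaves out repeats that are mostly A or mostly U. It also leaves out stretches of only A and U or only G and C, so it bears on GC content too. The dinucleotide values pool all repeated bases, of which the 31 transcripts with at least 4 copies held 38.1%.

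Short motifs known from RNA-binding proteins and RNA processing were searched on the given strand and its complement. Genome strand is not part of the deposited records and was not used here. The Pumilio letters UGUANAUA occurred 0.356 times per kb of repeated bases and 0.139 times per kb elsewhere in the members on the given strand. On the complement the order was turned, with 0.0712 per kb in repeats, from 2 matches, and 0.128 per kb in the rest. On the given strand 6 of the 10 matches in repeats were in TCONS_00059216. Each of the 6 units of 70 nt in TCONS_00059216 carried the letters once, always 70 nt apart, as the first 2 units show, with the match in capitals.
TCONS_00059216, first 2 units: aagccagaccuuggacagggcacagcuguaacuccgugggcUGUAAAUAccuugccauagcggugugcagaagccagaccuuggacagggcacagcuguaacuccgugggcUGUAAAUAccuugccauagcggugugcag
Of all 8040 records, 16.2% held UGUANAUA on the given strand and 17.2% on the complement.

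The Rbfox letters UGCAUG, recognised by splicing regulators of neurons and muscle, occurred 1.03 times per kb of repeated bases on the given strand and 0.418 times per kb in the rest. On the complement, where they read CAUGCA in the deposited sequence, the values were 1.32 and 0.439 per kb. Single arrays carried a large part of these matches, since 10 of 29 on the given strand were in TCONS_00013338, and 17 of 37 on the complement were in TCONS_00178785. TCONS_00013338 and TCONS_00168500, described next, were singled out after their values were seen. In TCONS_00013338, UGCAUG was in each of 10 units of 22 or 23 nt, and in TCONS_00178785 the complement letters were in 16 of 18 units.
TCONS_00013338, 160 nt of the array, UGCAUG in capitals: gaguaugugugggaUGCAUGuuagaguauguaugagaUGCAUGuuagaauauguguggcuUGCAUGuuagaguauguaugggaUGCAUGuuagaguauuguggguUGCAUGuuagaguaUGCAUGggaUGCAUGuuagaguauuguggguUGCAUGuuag
TCONS_00178785, 160 nt of the array, CAUGCA in capitals: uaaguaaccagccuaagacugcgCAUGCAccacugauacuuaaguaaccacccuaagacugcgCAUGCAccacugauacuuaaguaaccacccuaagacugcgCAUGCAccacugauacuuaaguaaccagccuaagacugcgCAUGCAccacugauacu
UGCAUG was on the given strand of 35.2% and on the complement of 35.7% of all records.

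On the given strand the other motifs were not more frequent in repeats. The letters AAUAAA, the common poly(A) signal, occurred 0.854 times per kb of repeated bases and 0.920 times per kb in the rest. Of the 24 matches in repeats 6 were in TCONS_00168500, whose units of 32 nt began agaauaaauaccc. The same letters AAUAAAUA hold UAUUUAU, an AU-rich element, on the complement. UAUUUAU itself was rare in repeats on the given strand, at 0.0712 per kb against 0.244 per kb. GGACU, a frequent context of m6A, occurred 0.676 and 0.903 times per kb. On the complement the values in repeats and in the rest were 0.427 and 0.936 per kb for AAUAAA, 0.214 and 0.235 for UAUUUAU, and 0.818 and 0.808 for GGACU. A motif match is a run of letters, and binding was not measured.

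Identical sequence did not bring identical predicted structure. In the deposited structures, a base opens a pair, closes a pair or is unpaired. The 2 copies of the longest exact repeat had the same state at a median of 41.6% of their bases (quartiles 30.1 to 55.3%). In the 241 transcripts with windows of equal length after both copies, the medians were 41.3% for the copies and 37.5% for the windows, and the copies were in closer accord in 136 of 241 (56.4%, 95% Wilson interval 50.1 to 62.5%). Transcripts with equal values were not counted as closer. The windows are not free of repeats: where the copies adjoin, the window after the first copy is the second copy. Where the gap is shorter than the repeat, that window overlaps the second copy. Only TCONS_00101735 and TCONS_00181000 had the same state at every base, with repeats of 23 and 28 nt. In TCONS_00186055 and TCONS_00040101 no base had the same state in both copies. The 24-nt copies of TCONS_00186055 adjoin, and 91.4% of its repeated bases were paired.

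Among the 31 transcripts with at least 4 copies, the median over all pairs of neighbouring copies was 51.0% of bases in the same state (19.02 to 76.7%). TCONS_00059216 was highest, at 76.7%, and TCONS_00252365 was close to it, at 76.1%. In the 15-copy array of TCONS_00198158 the value was 58.1%. For the 2 copies of the longest exact repeat, the values were 37.7% in TCONS_00059216, 70% in TCONS_00252365 and 27.0% in TCONS_00198158. Repeated bases tended to pair within the repeat in such arrays: a median of 75.3% of the paired repeated bases had a partner that was also repeated, against 32% over all tandem transcripts. In TCONS_00088145, TCONS_00099533 and TCONS_00059216 the share was 94.8%, 93.3% and 92.1%. A longer array offers more repeated partners. Over all 260 transcripts, 60% of repeated bases (median) and 58.7% of the remaining bases were paired, and the repeated bases were the more paired in 148 of 260.

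**Figure D4:**
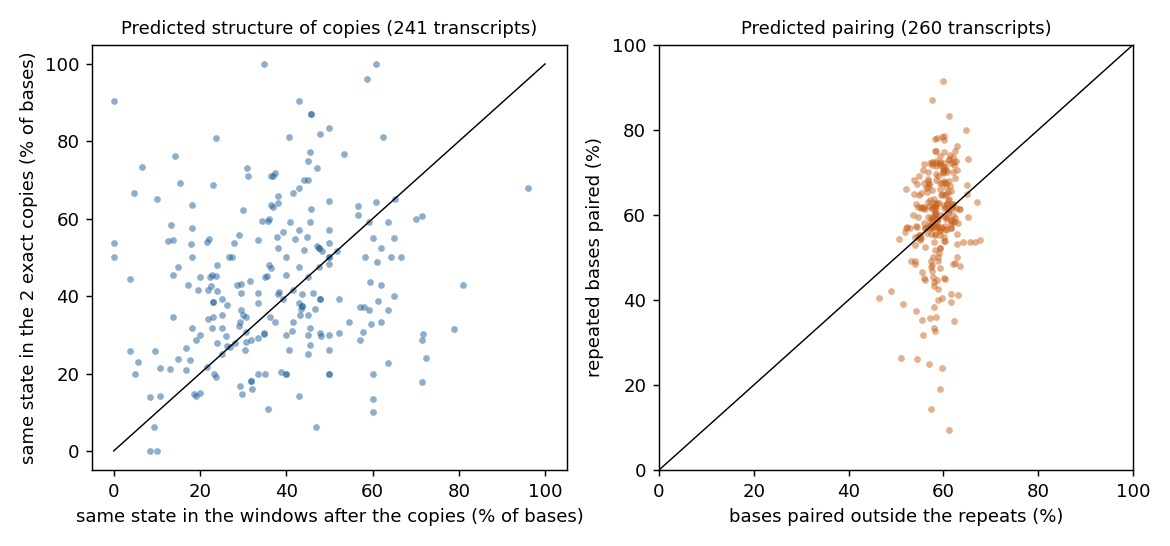
Left, percent of bases with the same predicted state in the 2 copies of the longest exact repeat (y axis) against the windows directly after them (x axis), 241 transcripts. Where the copies lie close together, the window after the first overlaps the second copy. Right, percent of repeated bases paired (y axis) against percent of the other bases paired (x axis), 260 transcripts. Points lie on both sides of the line of equal values in both panels, 136 of 241 above it on the left and 148 of 260 on the right.

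Internal repeats were more frequent in longer transcripts. They were found in 1.32% of transcripts under 800 nt (22), 2.41% from 800 to under 1200 nt (70), 3.65% from 1200 to under 2000 nt (92) and 8.03% of those of 2000 nt and over (76). The 95% Wilson intervals of the longest class, 6.46 to 9.93%, and of the shortest, 0.871 to 1.98%, did not overlap. A longer sequence offers more places for a repeat. The median length was 1388.5 nt in members and 1109 nt in the 7780 other records.

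**Figure D5:**
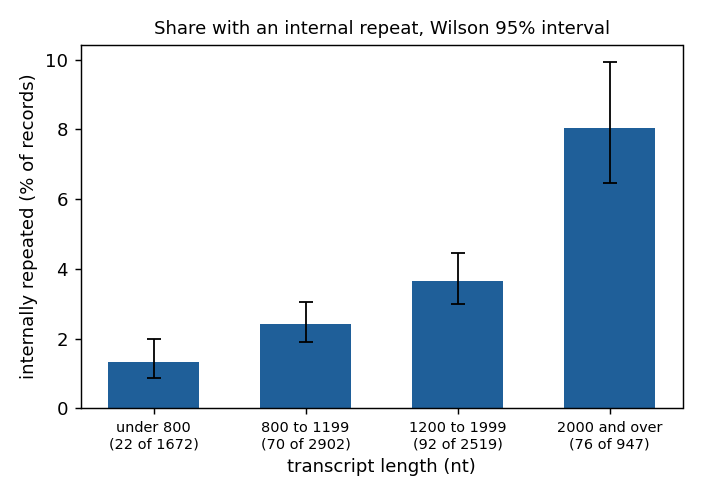
Percent of deposited new lncRNAs with an internal repeat (y axis) in 4 classes of transcript length in nt (x axis), with members and all records of the class in brackets. Error bars are Wilson 95% intervals, and the share rises from 1.32% in the shortest class to 8.03% in the longest.

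In other properties the members differed little from the remaining records. The median GC content was 42.4% in members and 41.6% in the others, and it was the higher in members in each of the 4 length classes, by 0.0622 to 1.83 percentage points. The median folding free energy per 100 nt was -28.3 and -27.8 kcal/mol, but from 800 to under 1200 nt the order was turned, -27.7 and -28.0 kcal/mol. The median paired share was 58.9% in both. The quartiles of each measure overlapped widely, for example 38.7 to 45.5% and 37.9 to 45.5% for GC content.

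The authors kept transcripts without coding potential, and the complement of the repeats was examined for reading frames. On the complement, a frame of at least 100 codons from AUG to stop was present in 31 of 260 members (11.9%, 95% Wilson interval 8.53 to 16.4%) and in 569 of 7780 others (7.31%, 6.76 to 7.91%). From 800 to under 1200 nt the shares were 7.14% in members and 5.44% in the others. From 1200 to under 2000 nt they were 17.4% and 9.31%. The order was turned under 800 nt, where no member of 22 had such a frame against 2.67% of the others. It was also turned from 2000 nt, where the shares were 13.2% and 16.6%. The 95% Wilson intervals of members and others overlapped in every length class except 1200 to under 2000 nt. In 13 members such a frame overlapped repeated bases. The frame of 174 codons in TCONS_00225379 held 494 repeated bases, and its unit lengths were 54 nt, a multiple of 3, and 44 nt, which is not. TCONS_00099533 had a frame of 179 codons, over units of 23 nt, and TCONS_00059216 had 1 of 175 codons over units of 70 nt. Neither 23 nor 70 is a multiple of 3, so successive units of these lengths are read in different phases.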

How the data were processed

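Cortex RNA of 3 control and 3 SAH libraries was freed of ribosomal RNA and broken into fragments of about 200 bp before sequencing. Per the submitters' processing notes, TopHat2 and the mm10 build were used. The assembler, the coding potential tool and the folding program are not given in the sources used here. The deposited file, of which the authors made 1 for the whole series, holds per transcript an RNA sequence, a dot-bracket structure and a free energy in kcal/mol (no counts, positions or strands), so no test between groups was run. Of 236 tandem arrays, 28 spanned over 200 nt, beyond 1 fragment. How far assembly fixed their copy number was not tested.

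Exact 20-nt stretches with at least 8 dinucleotides were indexed, and copies were counted from the 5′ end without overlap. The members and lists were chosen with earlier results of these data known. Named transcripts were the 10 with most copies, the 5 with the largest covered share, longest exact repeat, widest array or most other records, the longest, and up to 5 each with a miRNA or promoter match. RefSeq windows (32851) and mature miRNAs (1738) were searched on both strands. Shares carry Wilson 95% intervals. The search, run with Python 3.11.15, numpy 2.4.6 and matplotlib 3.10.9, was first tested on simulated data with planted repeats. Alternatives are given at the end.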

Additional observations from a re-analysis of the deposited data

How the results depend on the processing

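No paired analysis was possible because the deposited records carry no value per library, and for the same reason no library could be left out. Most dependence was on the length of the stretch: 436 transcripts were internally repeated with 16 nt, 170 with 25 nt, 123 with 30 nt and 38 with 50 nt, in place of 260. Transcripts with at least 3 copies rose from 53 to 85 with up to 2 mismatches. With 30 nt, the stretches of 95 transcripts, of the 122 with such a stretch, were in no other record, in place of 199 of 260. The count moved, but the share was similar. In 2 states, paired or unpaired, the copies had the same state at a median of 62.5% of bases, against 41.6% in 3 states. The difference in length, members minus others, was -53 nt in the class of 2000 nt and over, in place of 279.5 nt. The difference in free energy was 0.350 kcal/mol per 100 nt from 800 to under 1200 nt, in place of -0.478. The paired share differed by -0.618 and -0.656 percentage points from 800 to under 1200 nt and from 1200 to under 2000 nt, in place of 0.0475. The difference in complement frames, 4.61 points at 100 codons, was 12.3 points at 80 codons, -2.67 points under 800 nt and -3.49 points from 2000 nt. The cause was not tested. The other 39 of 53 recomputed values kept their direction and moved by less than 1.5 times for counts or by less than the spread between transcripts for medians. Restricting the structure comparison to 145 transcripts whose windows were under 50% identical was chosen after seeing the data. The copies were in closer accord in 84 of them (57.9%, 95% Wilson interval 49.8 to 65.7%). The interval includes 50%, but transcripts with equal values, such as TCONS_00037951, counted as not closer. A share of 50% therefore does not mark equal accord.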

Other observations

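Copies on opposite strands were outside the definition. They were found in 23 of 8040 records (0.286%, 95% Wilson interval 0.191 to 0.429%), of which 2, TCONS_00238053 and TCONS_00243294, were also internally repeated on the same strand. Such inverted copies can pair with each other within a transcript. The deposited free energy of the 23 records had a median of -31.6 kcal/mol per 100 nt (-46.3 to -24.5), against -27.9 over all records. TCONS_00250339 held 762 bases in inverted copies in a record of 9090 nt, and TCONS_00214529, of 313 nt, had 68 bases in inverted copies and the lowest energy of the 23. Both transcripts were chosen after their values were seen.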
